A study of Saccharomyces cerevisiae with 6 samples.

Results

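IMP dehydrogenase is the enzyme that turns inosine monophosphate (IMP) into xanthosine monophosphate, the committed and rate-limiting step on the way to GMP and GTP. In budding yeast it is encoded by the IMD genes, and the genes described here are IMD1, IMD2, IMD3 and IMD4 with GUA1, GUK1 and HPT1, which act after or beside that step. The array carried 9 probe sets whose platform annotation names 6 of these 7 genes, out of 9275 probe sets that are not controls. No probe set was annotated to IMD1, so no value is given for it. The annotation names 1 gene for each of the 9. It gives 3 probe sets to IMD2, 2 to IMD4 and 1 each to IMD3, GUA1, GUK1 and HPT1. The 3 IMD2 probe sets and the IMD3 probe set carry the letter f in their names, which the array maker uses for sets that can bind several members of a gene family. How much of their signal comes from related IMD transcripts was not tested.

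The samples were 6 single-colour arrays of total RNA from Saccharomyces cerevisiae in mid-log growth on the rich medium YPD (optical density of 0.5 to 0.7). There were 3 arrays of a mutant strain labelled H2B 3-32 and 3 arrays of a wild-type strain. The label names a range of H2B residues, and such labels usually mean that residues 3 to 32, part of the amino-terminal tail, have been deleted. The sources used here do not give strain background, mating type or the way the altered H2B gene is carried. Replicates 1 to 3 are numbered in both groups, wild-type array 3 is labelled as the wild type of other H2B mutants too, and nothing says that the replicates were separate cultures. The spread between them may therefore be technical. The genes were selected on their log2 differences between mutant and wild type, with the values of these same arrays in view. Those differences are therefore given below as description and without p-values. Counts of these genes' probe sets at a p threshold, here and in the closing section, are description too.

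In yeast, IMD2 is known for its response to guanine nucleotides: it is induced when they run short, as under mycophenolic acid or 6-azauracil, and its enzyme withstands mycophenolic acid. When GTP is plentiful, RNA polymerase starts at upstream sites of IMD2 and these short transcripts are ended by the Nrd1, Nab3 and Sen1 proteins and degraded. IMD3 and IMD4 supply the basal enzyme, and IMD1 is a disrupted copy in the reference strain. The sources used here do not give the positions of the probes within the genes, so upstream transcripts and full-length mRNA could not be separated.

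Several array-wide measures differed between replicates or strains. HTB1, which encodes H2B, read 15.2 to 19.4 on the mutant arrays and 1138 to 1372 on the wild-type arrays. HTB2, the other H2B gene, read low in both strains, at 2.6 to 5.4 on mutant arrays and 3.6 to 5.4 on wild-type arrays. Replicate 3 stood apart: its hybridisation controls averaged 195.6 on the mutant array and 202.7 on the wild-type array, while those of replicates 1 and 2 averaged 682.1 to 899.3. Control probe sets for 25S ribosomal RNA averaged 202.9 to 682.3 on mutant arrays and 91.5 to 216.9 on wild-type arrays. The ratio of 3′ to 5′ signal for actin, a measure of RNA integrity, was 1.46 to 1.9 on mutant arrays and 1.38 to 1.69 on wild-type arrays. For the TATA-binding protein control the same ratio was higher, at 3 to 3.59 on mutant arrays and 3.33 to 3.75 on wild-type arrays. The summed signal of 7 genes that mark a cells was 1845 to 2622 on mutant arrays and 2293 to 3221 on wild-type arrays. For 4 genes that mark alpha cells it was 60.2 to 74.8 on mutant arrays and 58.2 to 72.1 on wild-type arrays, and no marker of either list was at 0 on all arrays. Within the a-cell list, 5 of 6 tested genes had a negative log2 difference. BAR1, the protease that degrades alpha factor, fell by 0.63 on the log2 scale (limma adjusted p = 0.0226 with the replicate number as a block, and 1 without it). With 1 probe set per gene and the block, MFA1 and AGA2 passed too (limma adjusted p = 0.0466 and 0.0458). MFA2, STE2 and STE6 did not. The part of these markers in the results below was not tested.

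All 3 IMD2 probe sets gave lower signals on the mutant array of every same-numbered pair. Probe set 11264_f_at read 598.6, 544.1 and 519.2 on mutant arrays 1 to 3, against 798.5, 881.5 and 705.7 on wild-type arrays 1 to 3. The highest mutant array lay below the lowest wild-type array. The mutant mean was 554 ± 40.6 and the wild-type mean 795 ± 87.9 (SD, n = 3 each), a log2 difference of -0.52, which corresponds to 69.9% of the wild-type signal. Differences here and below are mutant minus wild type on the scale log2(intensity + 2.7), which slightly understates the change of dim genes.

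IMD2 probe set 4323_f_at read 560.9, 584.3 and 460.7 in the mutant and 788.9, 813.2 and 640.7 in the wild type. Here too the strains did not overlap. The means were 535 ± 65.7 in the mutant and 748 ± 93.4 in the wild type (SD, n = 3 each). Its log2 difference was -0.49, -0.48 and -0.47 in pairs 1, 2 and 3, a spread of 0.01 (SD). That spread was 0.15 for 11263_f_at and 0.15 for 11264_f_at. The 25S ribosomal RNA controls differed by 2.26, 0.63 and 1.15 in the same pairs. The part of ribosomal RNA signal in the IMD2 differences was not tested.

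The dimmest IMD2 probe set, 11263_f_at, read 142, 178.8 and 119.2 in the mutant and 241.1, 265.4 and 165.2 in the wild type. The strains overlapped, because mutant array 2 was above wild-type array 3. Within each pair the mutant was lower, by log2 differences of -0.75, -0.56 and -0.46, with a mean of -0.59. The 3 IMD2 probe sets moved alike over the 6 arrays, with pairwise Pearson correlations of 0.87 to 0.97 on the log2 scale. All 3 are annotated to IMD2 alone, so they are not counted as independent measurements. Which of them, if any, was designed on another IMD gene such as IMD1 is not given in the platform annotation, so signal of IMD2 and of its relatives cannot be told apart here.

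**Figure D1:**
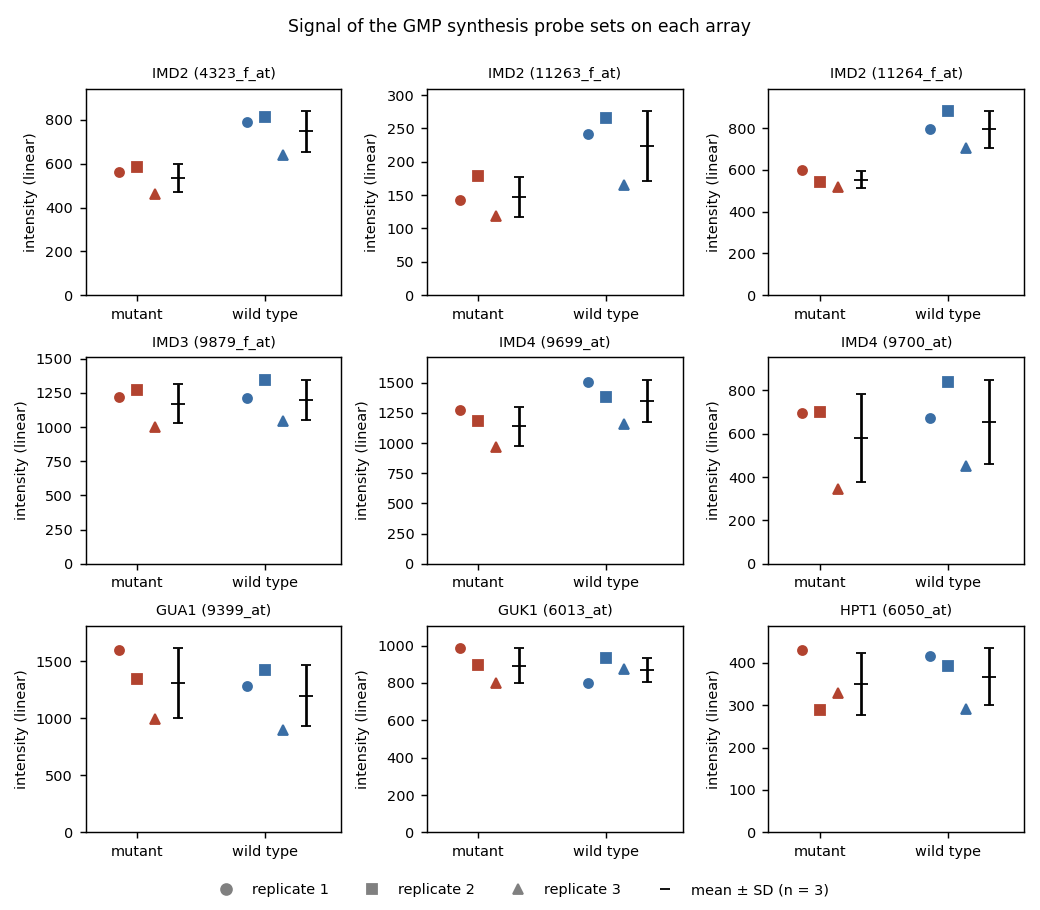
Linear intensity (vertical axes, from 0) of each of the 9 probe sets, with mutant arrays left of wild-type arrays, a symbol for each replicate number and a black bar for mean ± SD (n = 3). The mutant values lie below all wild-type values for IMD2 probe sets 4323_f_at and 11264_f_at, and the groups overlap in the other 7 panels.

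Across all 5466 probe sets tested, the median log2 difference was -0.05, and 5% of values lay at or below -0.37. The IMD2 values fell beyond that point: 11263_f_at ranked 44, 11264_f_at 87 and 4323_f_at 116 from the lowest. Strains that did not overlap, with the mutant below, were found for 2 of the 9 probe sets and for 4.65% of all probe sets tested. The 2 were IMD2 probe sets 4323_f_at and 11264_f_at. A negative difference in all 3 pairs was found for 4 of the 9 probe sets and for 25.3% of all tested, and a positive difference in all 3 for 0 of the 9 and for 12.6% of all. The 4 were the 3 IMD2 probe sets and IMD4 probe set 9699_at. Since the IMD2 sets are not independent, these counts do not describe the 9 as a family. A lower signal in all cells and in a share of the cells cannot be told apart in such bulk RNA.

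The limma fit with the strain alone called 0 of the 9 probe sets at an adjusted p under 0.05, with 3 of them, all for IMD2, at an unadjusted p under 0.05, as were 2.41% of all probe sets. That fit called 0.0183% of all probe sets lower, which is the HTB1 probe set alone, and 0% higher. With the replicate number as a block it called the 3 IMD2 probe sets lower and 0 of the 9 higher, against 0.622% of all probe sets called lower and 0.677% called higher. These counts come from the comparison in view of which the genes were chosen and are given as description. With the block, the standard error of the IMD2 log2 differences was 0.09 to 0.1, and without it 0.15 to 0.23. The calls also depended on the arrays used. With the block, 0 of the 9 were called from replicates 1 and 2 alone, where 10 probe sets in all were higher and 6 lower, and 0 from replicates 1 and 3 alone, where 7 were higher and 2 lower. The 3 were called from replicates 2 and 3 alone, where 65 were higher and 74 lower. The IMD2 log2 differences in these subsets were -0.66 to -0.48 in replicates 1 and 2, -0.61 to -0.43 in replicates 1 and 3, and -0.57 to -0.47 in replicates 2 and 3.

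For IMD3 the strains gave similar signals. Its probe set read 1219.6, 1273 and 1003 in the mutant and 1210.4, 1341.5 and 1045.3 in the wild type, so the strains overlapped throughout. The log2 difference was 0.01, -0.08 and -0.06 in pairs 1 to 3, with a mean of -0.04 that became 0 after scaling to a common median.

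IMD4 had small negative differences. Probe set 9699_at read 1278, 1179.8 and 965 in the mutant and 1504, 1384.1 and 1154.8 in the wild type. The strains overlapped, but each mutant array was below its same-numbered wild-type array, with log2 differences of -0.23, -0.23 and -0.26. The other IMD4 probe set, 9700_at, read 694.1, 700.1 and 343.2 in the mutant and 674.6, 839.8 and 449.1 in the wild type. Its differences were 0.04, -0.26 and -0.39, so the IMD4 probe sets disagreed in sign in pair 1. The mean was -0.24 for 9699_at and -0.20 for 9700_at.

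IMD4 contains an intron that holds the small nucleolar RNA gene SNR54, which guides methylation of ribosomal RNA. In the R64 gene table SNR54 lies within the span of IMD4, and it has a probe set of its own. That probe set read 23.2, 30.4 and 52.3 in the mutant and 37.4, 29.8 and 34.9 in the wild type. The strains overlapped and the log2 difference was -0.02 (limma adjusted p = 0.977 with the replicate block).

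GUA1 encodes GMP synthase, which makes GMP from xanthosine monophosphate. It read 1599.6, 1342.5 and 991.6 in the mutant and 1281.2, 1422.3 and 898.7 in the wild type. The mutant array was higher in pairs 1 and 3 and lower in pair 2, with log2 differences of 0.32, -0.08 and 0.14 and a mean of 0.13. Leaving out mutant array 1 or wild-type array 3 turned this mean negative.

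GUK1 encodes guanylate kinase, which converts GMP to GDP. It read 985, 894.7 and 797.5 in the mutant and 800.6, 931.8 and 874.8 in the wild type. The strains overlapped, and only pair 1 had the higher signal in the mutant (log2 0.30, against -0.06 and -0.13 in pairs 2 and 3). Its mean difference of 0.04 became -0.03 after quantile normalization.

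HPT1 encodes the phosphoribosyltransferase that salvages hypoxanthine and guanine. It read 429.7, 287.6 and 328.7 in the mutant and 417, 393.4 and 290.5 in the wild type. Its differences of 0.04, -0.45 and 0.18 had the widest spread of the 9 probe sets (SD 0.33), and pair 2 alone gave the mean of -0.08 its sign.

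**Figure D2:**
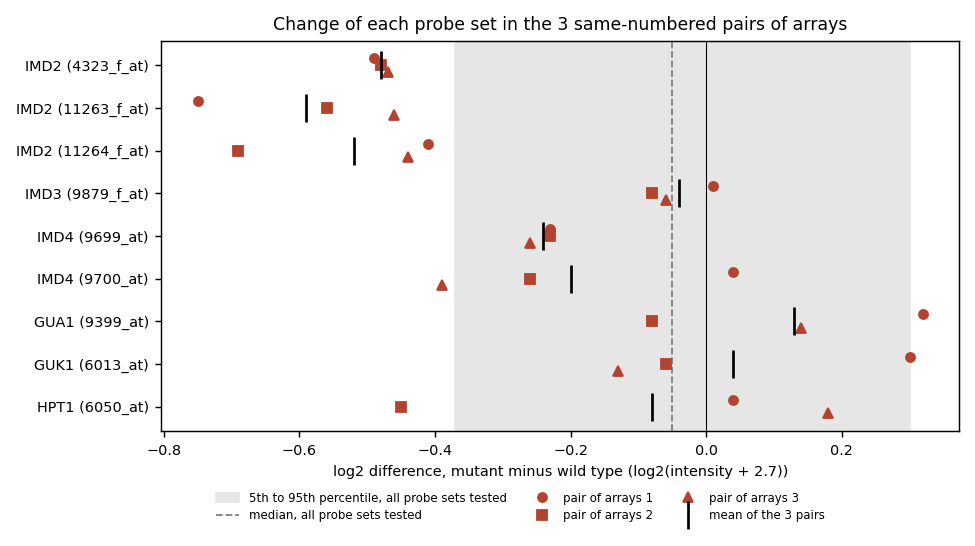
Log2 difference, mutant minus wild type (horizontal axis), of each probe set in same-numbered pairs 1, 2 and 3 of arrays, with a black bar at the mean; the grey band spans the 5th to 95th percentile (-0.37 to 0.30) of the mean differences over all probe sets tested and the dashed line their median (-0.05). All 9 values of the IMD2 probe sets lie between -0.75 and -0.41, left of the band.

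The IMD2 difference was more negative than that of the other genes in every pair. The IMD2 log2 difference minus that of IMD3 in the same pair was -0.76 to -0.38, with 9 of 9 values below 0, from 3 probe sets in 3 pairs. Minus that of the IMD4 probe sets it was -0.79 to -0.06, with 18 of 18 values below 0. The values nearest 0 came from 9700_at in pair 3. For GUA1 the range was -1.07 to -0.39, for GUK1 -1.05 to -0.31 and for HPT1 -0.80 to -0.03, with 9 of 9 values below 0 each. These values share probe sets and arrays, and they compare changes, not levels, of different probe sets. They come from the differences in view of which the genes were chosen, so the counts are description. The median difference was -0.52 over the 3 IMD2 probe sets and -0.06 over the other 6. It was -0.20 over all 9, which all passed the filter on dim signals, and -0.06 with the brightest probe set of each gene only. In that last setting the median over all genes tested was -0.06 too.

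Within each strain, the genes also differed between replicate 3 and replicates 1 and 2. On the deposited scale, array 3 of the mutant was below the mean of mutant arrays 1 and 2 for all 9 probe sets, by log2 differences of -1.02 to -0.10, and array 3 of the wild type for 8 of 9, the exception being GUK1 at 0.02. Bright probe sets as a whole did the same: the median over the brightest 10% of those tested was -0.47 in the mutant and -0.40 in the wild type. After quantile normalization, that median was 0.01 in both strains. IMD4 probe set 9700_at then still stood at -1.15 in the mutant and -0.81 in the wild type, and IMD2 probe set 11263_f_at at -0.70 and -0.87. The other IMD4 probe set, 9699_at, stood at -0.04 and 0.08 and IMD3 at 0.03 and 0.09. The IMD4 probe sets thus differed from each other in how far array 3 departed, in both strains.

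**Figure D3:**
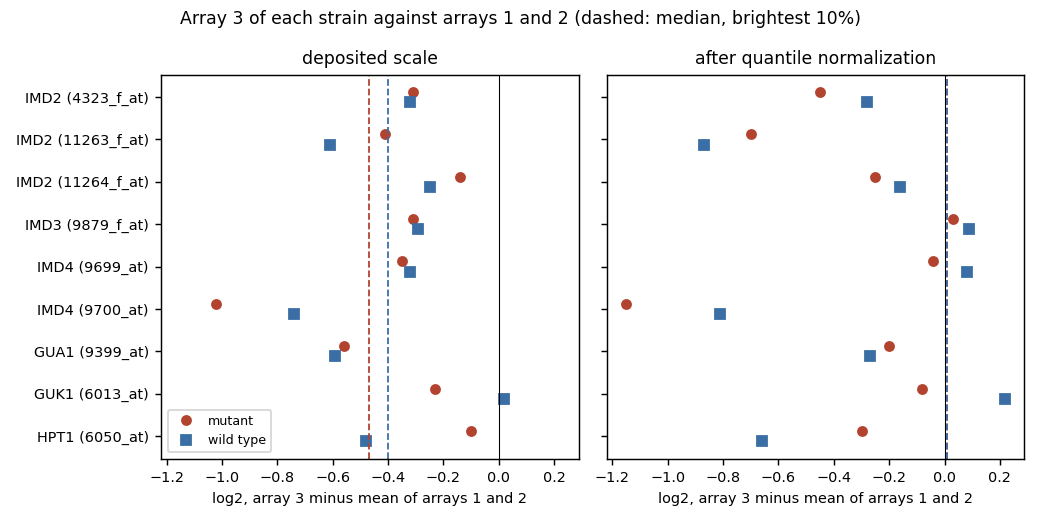
Log2 difference of array 3 minus the mean of arrays 1 and 2 (horizontal axes) for each probe set in the mutant (circles) and the wild type (squares), on the deposited scale at left and after quantile normalization at right; dashed lines give the median of the brightest 10% of probe sets. IMD4 probe set 9700_at lies farthest left in the mutant in both panels, at -1.02 and -1.15.

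Related genes were compared through 6 lists with 54 genes, of which 51 were tested: 5 lists of purine metabolism with 37 tested genes, and 1 of factors that act on IMD2 transcription with 14. The fit with the strain alone called 0 of them at an adjusted p under 0.05, with 1 at an unadjusted p under 0.05 (2.41% of all probe sets). The limma fit with the replicate block called 0 higher and 0 lower, with 3 higher and 4 lower at an unadjusted p under 0.05, near the shares over all probe sets (5.58% higher and 10.2% lower). The smallest adjusted p in that fit was 0.123.

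Of 11 genes of de novo synthesis, the route that builds IMP from phosphoribosyl pyrophosphate and turns part of it into AMP, 10 were tested and 8 had positive log2 differences (median 0.09). ADE4 encodes the amidotransferase that opens the route. It read 24.5, 24.9 and 56 in the mutant and 23.7, 18.3 and 35.4 in the wild type (log2 0.35, limma adjusted p = 0.304 with the block). ADE1, which acts later in it, had a mean of 82.8 ± 25.5 in the mutant and 100 ± 18.9 in the wild type (SD, n = 3 each, log2 -0.29, limma adjusted p = 0.254 with the block). ADE12, which draws IMP away towards AMP, averaged 235 ± 5.49 in the mutant and 223 ± 8.11 in the wild type (SD, n = 3 each). It was chosen after its values were seen, since its strains did not overlap, and its log2 difference was 0.08 (limma adjusted p = 0.728 with the block).

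In the list for salvage, interconversion and uptake of purines, 17 of 18 genes were tested, with log2 differences of -0.42 to 0.48 and a median of 0.04. FUN26, a nucleoside transporter of internal membranes, read 57.6, 101.2 and 115.9 in the mutant and 92.9, 134.3 and 133.1 in the wild type (log2 -0.42, limma adjusted p = 0.123 with the block). The mutant array was lower in each pair, although the strains overlapped. FCY21, a relative of the purine and cytosine permease FCY2, read 89.1, 112.6 and 81 in the mutant and 78.6, 57.4 and 63.8 in the wild type (log2 0.48, limma adjusted p = 0.149 with the block). All mutant arrays were above all wild-type arrays, as for 2.6% of all probe sets. With scaling to a common median and the block, FCY21 passed in limma (adjusted p = 0.0296, log2 0.52).

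The remaining lists lay close to 0. PRPP synthesis, which supplies the sugar phosphate on which purines are built, had 5 tested genes between -0.15 and 0.06, with PRS5 at -0.15 and PRS2 at -0.07. The branches that draw on GTP had 3 tested genes between -0.14 and 0, among them RIB1 of riboflavin synthesis at -0.14 and FOL2 of folate synthesis at -0.11. Of the regulators, GCN4, the activator of amino acid synthesis genes, had a log2 difference of -0.19 and BAS1, an activator of ADE genes, of -0.04, while PHO2 was too dim to test. None of the genes in these lists passed, and 0 had an unadjusted p under 0.05 in either limma fit.

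Factors known to act on IMD2 transcription or on RNA polymerase II elongation were measured as well. All 14 were tested, 0 were called and 0 had an unadjusted p under 0.05 in limma, with log2 differences between -0.13 and 0.23 and a median of 0.04. NRD1 and NAB3, which bind the short upstream transcripts, had differences of 0.01 and 0.06 and were chosen after their values were seen. PAP2, the poly(A) polymerase that marks such transcripts for decay, averaged 46.3 ± 1.57 in the mutant and 39.2 ± 4.08 in the wild type (SD, n = 3 each, log2 0.23, limma adjusted p = 0.403 with the block). CDC73, a subunit of the Paf1 elongation complex, had a difference of -0.12.

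**Figure D4:**
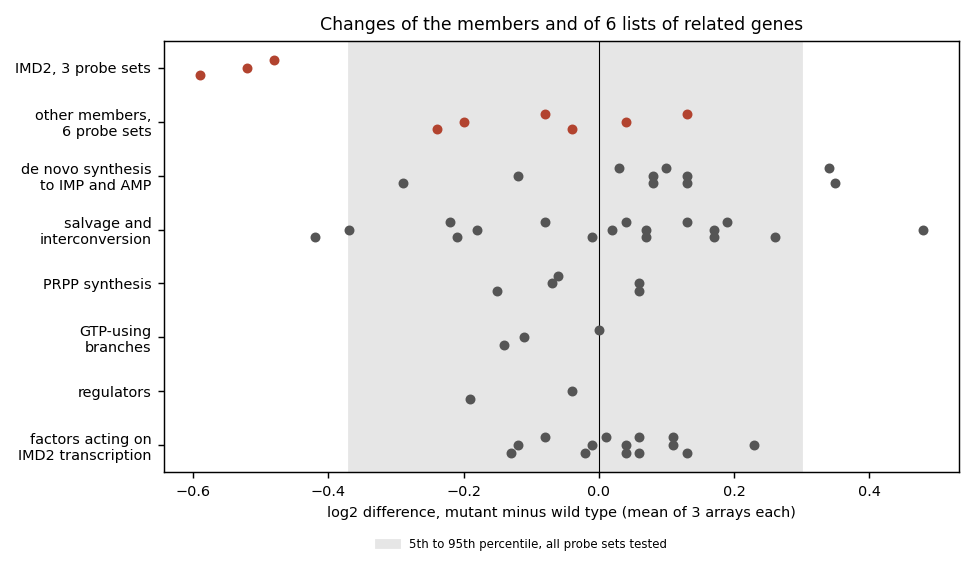
Mean log2 difference, mutant minus wild type (horizontal axis), of the 3 IMD2 probe sets, the 6 probe sets of the other members and each tested gene of 6 lists (rows); the grey band is the 5th to 95th percentile over all probe sets tested. The IMD2 points lie between -0.59 and -0.48, and the lowest point of the other rows is FUN26 at -0.42.

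IMD2 lies near the right end of chromosome VIII, where the R64 gene table lists 2 genes beyond it, while the nearer chromosome end is 32 genes away for IMD3 on chromosome XII and 81 genes away for IMD4 on chromosome XIII. The 3 genes on either side of each, where the table has them, came to 17. They include SNR54, which lies within the span of IMD4 and was counted as 1 of its neighbours. Of these, 14 had a probe set of their own, 12 were tested, and 0 were called in either limma fit, with 1 and 2 at an unadjusted p under 0.05 without and with the block, where 2.41% and 15.7% of all probe sets were. On the IMD2 side, PHO12 shares its probe set with PHO11, the genes beyond IMD2 had none of their own, and YHR214C-E was dim. YHR214C-D, the only neighbour of IMD2 that was tested, read 16.7, 19 and 26.6 in the mutant and 16.1, 28.1 and 22.1 in the wild type, and the strains overlapped (log2 -0.07).

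Near IMD4, the DNA damage response gene HUG1 read 44.6, 47.7 and 54.1 in the mutant and 28.7, 28.7 and 41.2 in the wild type. The mutant lay above the wild type on all arrays (log2 0.55, limma adjusted p = 0.0812 with the block). With 1 probe set per gene and the block, a fit chosen after seeing the data, its limma adjusted p was 0.0481. That fit called 40 of 4525 genes higher and 63 lower. SPC2, a subunit of signal peptidase on the other side of IMD4, read 118.3, 108.9 and 138.9 in the mutant and 145.1, 147.9 and 174.6 in the wild type. All mutant arrays were lower (log2 -0.35, limma adjusted p = 0.126 with the block). SML1, also near IMD4, read 1090.1, 1072.2 and 1107.3 in the mutant and 1170.1, 1206.1 and 1173.2 in the wild type. Its strains did not overlap either, with a log2 difference of -0.12. Of the 12 neighbours tested, SNR54 included, the mutant lay below the wild type for 2 and above for 1, against 4.65% and 2.6% of all probe sets. The neighbours of IMD3 had log2 differences between -0.16 and 0.30, with SEN1, the helicase that acts with NRD1 and NAB3, at 0.11.

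The genes whose log2 signals followed each probe set most closely over the 6 arrays were found by Pearson correlation among 5193 probe sets of single other genes. For IMD2, 4323_f_at was followed by BMH1, SCW10 and TIM13 (0.980 to 0.982), 11264_f_at by TFG2, SCW10 and SRL1 (0.978 to 0.993), and 11263_f_at by YHB1, NUP82 and REH1 (0.985 to 0.995). SCW10 was the gene that appeared for more than 1 IMD2 probe set. YHB1, the flavohemoglobin that detoxifies nitric oxide, had a log2 difference of -0.58 on the probe set most like 11263_f_at, and -0.08 on another of its probe sets, which was the one most like IMD4 probe set 9700_at. For the other genes that followed IMD2 probe sets, the differences were -0.16 to -0.30, smaller than those of IMD2 itself.

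The IMD3 probe set was followed by COA6, RPL17B and USO1 (0.993 to 0.997). IMD4 probe set 9699_at was followed by NOG1, SER2 and GCD11 (0.974 to 0.977), and 9700_at by YHB1, NOG2 and PUS4 (0.992 to 0.993). GUA1 was followed by NPA3, DIA1 and DIM1 (0.992 to 0.996), GUK1 by ERG8, RAS1 and LIH1 (0.974 to 0.989), and HPT1 by RPT5, TAD1 and IZH4 (0.950 to 0.971). These are descriptions over 6 arrays that share the departure of replicate 3, chosen as the highest of many values.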

How the data were processed

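The deposited intensity values, 1 per probe set and array and not log-transformed, come from MAS5, per the submitters' processing notes. The sources used here name neither the version and settings of MAS5 nor its detection calls. The 2% trimmed means of the 6 columns were 125.1 to 125.2, so they were used as deposited. Biotin-labelled RNA was made from about 20 µg of total RNA per the labels' protocols. Of 9335 probe sets, 60 controls were left out. In the platform annotation, 6504 of the rest have 1 gene, 328 several and 2443 none, and gene identifiers were looked up in the R64 RefSeq table for current symbols (6504 matched).

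The 6832 probe sets with a gene entered at probe set level, so that probe sets shared between genes stayed in. Values were taken as log2(intensity + 2.7), where 2.7 is the 10th percentile over non-control probe sets. The dimmest 20% by mean log2 signal (1366) were dropped, leaving 5466. With limma 3.58.1 (R 4.3.3), lmFit and trended eBayes compared mutant with wild type, two-sided, with Benjamini-Hochberg adjustment over all 5466 and a threshold of 0.05. The design held the strain alone, and blocking on replicate number was an alternative. Deviations of same-numbered arrays from their group means correlated across probe sets at 0.55, 0.65 and 0.89 for replicates 1, 2 and 3. All were above 0.1, so the numbers were taken to pair the arrays. Block values are given where they change a call, and for several named genes where they do not. Where only a block value is given, the fit with the strain alone did not call the gene. Mutant array 1 correlated at 0.67 with wild-type array 2 and mutant array 2 at 0.60 with wild-type array 1, so the pairing of replicates 1 and 2 rests on the numbers in the labels. Deviations from a mean of 3 arrays sum to 0. A departure of array 3 shared by the strains therefore makes arrays 1 and 2 correlate in either pairing, and the threshold could not test theirs.

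The members and lists were chosen with earlier results of these data known. Named genes were the members, the called genes of each list (at most 4, by p, or the top 2 where none was called), 3 neighbours on either side of each IMD gene and the 3 genes most like each probe set. A gene of a list was represented by its brightest probe set that names it alone. The steps were tested on simulated data with the means, replicate deviations and spread of these arrays. Limits on recovery and on false calls were set there for the fit with the block only. Promoter and protein sequences were not analysed here. Precision is limited by having 3 arrays per strain.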

Additional observations from a re-analysis of the deposited data

How the results depend on the processing

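The log2 differences of the 9 probe sets kept within the spread between replicates (1 SD) under every alternative that gave a value for them, namely quantile normalization, scaling to a common median, offsets of 0, 1 and 16, other filters and choices of probe sets, no variance trend, replicate 3 as a batch, subsets of pairs and leaving out each array. IMD2 stayed negative under all alternatives: 4323_f_at between -0.59 and -0.38, 11263_f_at between -0.79 and -0.46 and 11264_f_at between -0.60 and -0.43. So did IMD4 probe set 9699_at (-0.35 to -0.13). The sign changed in at least 1 setting for IMD3, 9700_at, GUA1, GUK1 and HPT1. The median over the 9 was -0.35 to -0.02 without single arrays, against -0.20 with all, and -0.06 with 1 probe set per gene.

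With the strain alone 0 probe sets were called higher and 1 lower. The counts higher and lower were 37 and 34 with the replicate block, 33 and 35 with replicate 3 as a batch, and 9 and 5 in replicates 1 and 2 alone. With the block they were 10 and 6 in replicates 1 and 2, 65 and 74 in replicates 2 and 3, 7 and 2 in replicates 1 and 3, 40 and 63 with 1 probe set per gene, 59 and 42 after quantile normalization and 99 and 82 after scaling to a common median. Of the 9 probe sets, 3 were called lower with the block, with replicate 3 as a batch, and with the block in replicates 2 and 3, after quantile normalization or after median scaling, and 1 with 1 probe set per gene, where IMD2 has a single probe set. With the block, 0.622% of all probe sets tested were called lower. The genes were chosen with these differences in view, so their counts are description and not a test in any setting. In the lists of related genes 1 gene, FCY21, was called higher with median scaling and the block. The cause of these shifts was not tested, apart from the number of arrays and probe sets that the settings themselves change. The offset of 1 and the settings that join another choice, subsets of pairs included, with the block were chosen after seeing the data.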
